A study of Mus musculus with 12 samples.

Results

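RNA was measured for 10 genes that sense foreign or misplaced nucleic acid or relay the signal, namely Ddx58, Ifih1, Dhx58, Zbp1, Eif2ak2, Tlr3, Mavs, Irf3, Irf7 and Adar. They were taken by mouse gene symbol for their roles, with earlier results of these data known, and all 10 were found among the 27179 Entrez gene IDs of the count table. All 10 also passed the filter on low counts that left 12910 genes for testing. The cells were MC38-idAdpgkG, a stable transfectant of MC38, a line from a colon carcinoma of a C57BL/6 mouse. It carries an inducible and degradable transgene for the R304M mutant of Adpgk, the ADP-dependent glucokinase, fused to turboGFP. The series concerns the measurement of neoepitopes that MHC class I displays.

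All 4 groups received 20 ng/mL mouse interferon-gamma for 51 h, so no group shows these genes without interferon. The control group had interferon-gamma alone, and the doxycycline group also had 1 µg/mL doxycycline for the 51 h. The dTAG-13 group had interferon-gamma for 48 h and then, for the last 3 h, 1 µM of the degrader dTAG-13, which brings cereblon, part of a ubiquitin ligase, to proteins with a matching tag. The doxycycline plus dTAG-13 group had all 3 agents on the same schedule. Each group is 1 biological sample of this 1 engineered line, sequenced as 3 technical replicates, as the labels state. Errors and p-values therefore measure the spread between libraries, and each difference is one between 2 cultures.

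Cells recognise viral RNA, or their own RNA in the wrong form, through a few receptor families. RIG-I (encoded by Ddx58) and MDA5 (Ifih1) are helicases that bind double-stranded RNA in the cytosol and signal through MAVS on the mitochondrial surface. The kinases TBK1 and IKKε then activate the transcription factors IRF3 and IRF7, which switch on interferon genes. Interferon in turn raises many of the sensors, so most of these genes are both part of the pathway and among its targets.

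The libraries held 22165538 to 32809573 counts, and the members had 106 to 4985 reads per library. Adpgk, the gene on the transgene, was at 160.5 ± 2.49 and 181 ± 4.18 normalised counts per 1000000 (CPM) in the control and dTAG-13 groups. It was at 1338 ± 20.1 CPM with doxycycline and 1369 ± 15.7 with doxycycline plus dTAG-13 (mean ± SD, n = 3). The defining markers of colon epithelium were near 0 in all groups. Their 10 genes summed to 0.282 to 1.00 CPM per library, with Epcam and Cdx2 at 0 counts in all 12. The 10 mesenchymal markers summed to 3602 to 3657 CPM in control, 3709 to 3761 with doxycycline, 2980 to 3009 with dTAG-13 and 2882 to 2942 with both. Of these, 7 reached 1 CPM in each group, and Vim and Col3a1 were the highest. Col1a1, Col1a2 and Thy1 were near 0, with means of 0.069, 0.15 and 0.0054 CPM over the 12 libraries. Several of the sensors are well known in immune cells. The pan-leukocyte, lymphocyte and dendritic markers were near 0, while a few myeloid markers were read. The pan-leukocyte gene Ptprc had 3 reads in all 12 libraries and Siglech of plasmacytoid dendritic cells had 0. The 8 myeloid markers summed to 7.64 to 9.30 CPM in the libraries without dTAG-13 and 10.2 to 11.2 CPM in those with it, mostly from Cd14. Lymphocyte and dendritic markers stayed at or below 0.138 and 0.257 CPM.

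In the mouse assembly GRCm38, which mm10 names, and with the Entrez IDs of the count table, the receptor genes are Ddx58 (230073, chr4:40203777-40239825), Ifih1 (71586, chr2:62595618-62646255) and Dhx58 (80861, chr11:100694884-100704271). The other sensors are Zbp1 (58203, chr2:173206612-173218959), Eif2ak2 (19106, chr17:78850504-78882572) and Tlr3 (142980, chr8:45395665-45411075). The adaptor Mavs (228607, chr2:131234063-131248025), the factors Irf3 (54131, chr7:44997648-45002848) and Irf7 (54123, chr7:141263183-141266499) and the editing gene Adar (56417, chr3:89714469-89753455) complete the set. The count table has 1 row per gene, so isoforms are not separated.

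The promoters bear on genes that interferon is known to raise, so the interferon-stimulated response element (ISRE, searched as GAAA, any 2 bases and GAAA) and the interferon-gamma activated site (GAS, searched as TTCNNNGAA) were looked for on both strands. RefSeq windows of 300 bases, 250 before and 50 after each transcript start (GRCm38.p6), matched 8 of the 10 members with 10 windows. Zbp1 and Dhx58 had no entry. The ISRE letters were in 1 window each of Ddx58, Ifih1 and Eif2ak2, against 3.44% of all 32851 windows. The GAS letters were in 1 of the 3 windows of Adar and in the Eif2ak2 window, against 8.30% of all windows. The 5 matches are shown with their flanks as 30 bases on the strand of the gene, with the matched letters in capitals.
Ddx58 ISRE, chr4:40239804-40239833: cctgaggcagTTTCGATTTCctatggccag
Ifih1 ISRE, chr2:62646206-62646235: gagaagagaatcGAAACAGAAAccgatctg
Eif2ak2 ISRE, chr17:78882535-78882564: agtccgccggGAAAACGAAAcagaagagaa
Eif2ak2 GAS, chr17:78882731-78882760: ctgcagagctTTCCCAGAAtggaagccagg
Adar GAS, chr3:89730730-89730759: gggaagccttTTCAAGGAAacgaaagtgaa
All but the last are printed from the minus strand of the chromosome. The Ddx58 match is the motif read on the opposite strand of the gene, and it begins at base 3 counted from the annotated start. Those of Ifih1 and Eif2ak2 begin at bases 33 and 19. The GAS match of Eif2ak2 begins 178 bases before the start and that of Adar at base 23. The 2 motifs do not overlap in any window. A match is only a run of letters and was not tested for binding.

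Levels between genes were compared as CPM per kilobase of annotated exon. Zbp1, whose protein binds Z-form RNA and DNA, was the highest member in all 4 groups, at 51.9 ± 1.84 CPM per kilobase in control. The adaptor Mavs (34.1 ± 0.990) and the RIG-I gene Ddx58 (30.2 ± 0.795) followed. Next came Adar (14.8 ± 0.439) and Eif2ak2 (14.5 ± 0.788), whose libraries overlapped, and then Irf3 (9.56 ± 0.493). The MDA5 gene Ifih1 was at 4.61 ± 0.153. Tlr3 (3.26 ± 0.328) and Irf7 (3.03 ± 0.292) overlapped, and Dhx58 was lowest at 1.79 ± 0.315 per kilobase. With doxycycline, Ddx58 (37.7 ± 0.555) stood above Mavs (32.6 ± 0.695), and Irf7 (5.84 ± 0.222) overlapped with Ifih1 (5.61 ± 0.161).

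**Figure D1:**
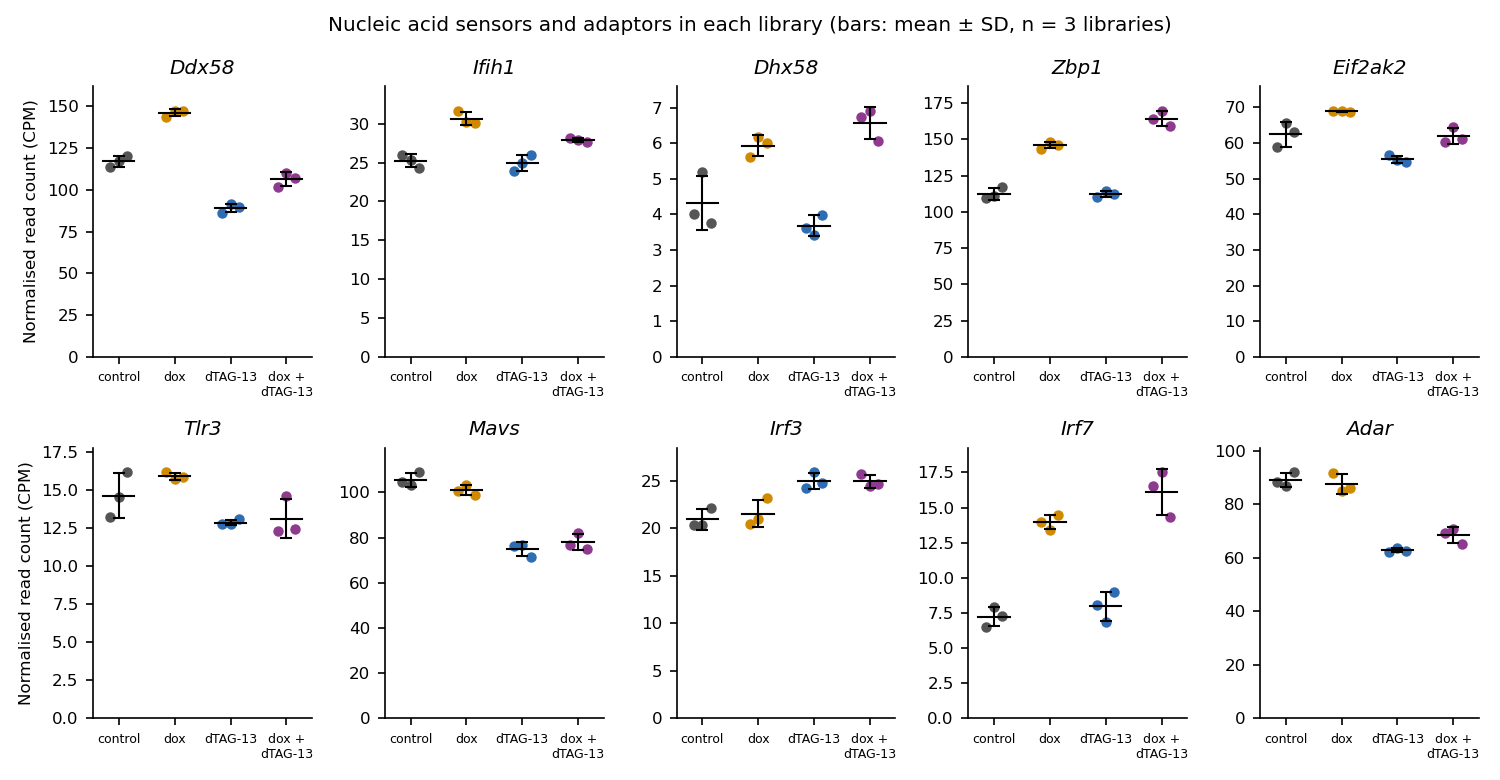
Normalised read count (CPM, y axis from 0) of each of the 10 genes in the 3 libraries of each group. Points are libraries, lines are means and bars are SD; Irf7 stands at 13.4 to 17.5 CPM in the 6 libraries with doxycycline and at 6.53 to 8.99 CPM in the 6 without.

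Doxycycline was compared with control, and doxycycline plus dTAG-13 with dTAG-13, to ask what differed with doxycycline, which switches the transgene on. All libraries came from the engineered line. An effect of doxycycline itself and one of the transgene therefore cannot be told apart. The receptors of the RIG-I family, Zbp1, Eif2ak2 and Irf7 rose with doxycycline both times, while Mavs, Irf3 and Tlr3 did not pass the test in either comparison. Of the 10 members, 6 were called higher and 0 lower against control, where the shares of all genes tested were 14.8% and 18.7%. When dTAG-13 was present 7 were called higher and 0 lower, where 10.7% and 9.64% of all genes were. Each value is a level in bulk RNA, in which fewer cells that express a gene and less RNA per cell cannot be told apart. The 2 comparisons share no library, and 6 members were called higher in both, as were 3.83% of all genes. In both, 0 members were called lower by edgeR, against 3.68% of all genes, and with 10 members a count of 0 is near that share. The count lower was also 0 in each comparison by DESeq2 and at an unadjusted edgeR p under 0.05. No share of all genes was counted for those. The median log2 fold change of the members was 0.21 and 0.16, against -0.010 and -0.00077 for all genes.

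Irf7 rose most in both. It encodes the interferon regulatory factor that is itself induced by interferon and drives the later wave of interferon genes. It was at 6.53, 7.92 and 7.28 CPM in control and at 14.0, 13.4 and 14.5 CPM with doxycycline. Without doxycycline but with dTAG-13 it was at 8.03, 6.89 and 8.99 CPM, and with both agents at 16.5, 17.5 and 14.3. Every library with doxycycline was above every library without it. The fold was 1.93 against control (log2 fold change 0.95, SE 0.093, adjusted p 9.84e-11) and 2.02 with dTAG-13 present (1.01, SE 0.0914, adjusted p 1.86e-11).

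The 3 RIG-I-like receptors rose to different degrees. Ddx58 was at 114, 117 and 120.1 CPM in control, 144, 147 and 147 with doxycycline, 86.3, 91.3 and 90.0 with dTAG-13, and 102, 110.2 and 107 with both. The control and doxycycline libraries did not overlap, nor did those with dTAG-13 alone and with both agents. Ddx58 rose with doxycycline by 0.32 on the log2 scale (SE 0.0306, adjusted p 3.50e-11) and, with dTAG-13, by 0.25 (SE 0.0324, adjusted p 6.73e-08). Dhx58 encodes LGP2, a receptor that lacks the signalling domains of the other 2 and tunes them. It was at 4.02, 5.18 and 3.76 CPM in control, 5.60, 6.17 and 6.01 with doxycycline, 3.63, 3.41 and 4.0 with dTAG-13, and 6.73, 6.92 and 6.06 with both. On these few reads, 106 to 190 per library, the fold was 1.37 (log2 0.45, SE 0.12, adjusted p 0.00304) and 1.78 (0.83, SE 0.124, adjusted p 2.03e-06). Ifih1 encodes MDA5, which prefers long double-stranded RNA. It went from 26.0, 25.3 and 24.3 CPM in control to 31.7, 30.2 and 30.1 with doxycycline, and from 23.9, 24.9 and 26.0 with dTAG-13 to 28.1, 27.9 and 27.6 with both. Both pairs of groups were apart, with folds of 1.22 (log2 0.28, SE 0.0517, adjusted p 3.27e-05) and 1.12 (0.16, SE 0.0533, adjusted p 0.0269). The second Ifih1 call was lost when only library size was scaled (0.13, adjusted p 0.0856) and without dTAG-13 replicate 1 or 2 or any 1 of the 3 libraries with both agents (0.13 to 0.17, adjusted p 0.0511 to 0.121).

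Zbp1 was at 109, 111 and 117 CPM in control and at 144, 148 and 146 with doxycycline. It was at 111, 114 and 112 CPM with dTAG-13 and at 164, 169.7 and 159 with both agents. The control and dTAG-13 libraries lay within one range, and those with both agents were the highest of all. Zbp1 rose with doxycycline by 0.38 on the log2 scale (SE 0.0297, adjusted p 1.57e-13) and, with dTAG-13 present, by 0.55, a fold of 1.46 (SE 0.0297, adjusted p 3.54e-18). Eif2ak2 encodes PKR, the kinase that halts translation by phosphorylating eIF2α when it binds double-stranded RNA. It was at 58.7, 65.5 and 62.9 CPM in control, 69.1, 68.9 and 68.8 with doxycycline, 56.5, 55.2 and 54.6 with dTAG-13, and 60.3, 64.4 and 61.2 with both. The groups compared did not overlap, but the change was small, 1.11-fold against control (log2 0.14, SE 0.039, adjusted p 0.00334) and 1.12-fold with dTAG-13 (0.16, SE 0.0404, adjusted p 0.00314). The first was not called without control replicate 1 (0.098, adjusted p 0.0740).

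The adaptor, the constitutive factor and the endosomal receptor were not called in either comparison. Mavs changed by -0.063 on the log2 scale against control (95% interval -0.13 to 0.0050) and by 0.056 with dTAG-13 (-0.017 to 0.13). Irf3 encodes the factor that is present before infection and is activated by phosphorylation. It changed by 0.041 (-0.076 to 0.16) and by -0.0035 (-0.12 to 0.11). For Tlr3, which senses double-stranded RNA in endosomes rather than in the cytosol, the values were 0.12 (-0.022 to 0.27) and 0.028 (-0.13 to 0.18). The first interval includes the 0.14 of Eif2ak2, which was called. Adar encodes ADAR1, which edits adenosine to inosine in double-stranded RNA and so keeps the cell's own RNA from MDA5. Its value was -0.024 against control (-0.095 to 0.046), or 0.012 when only library size was scaled, and it rose by 0.12 with dTAG-13 present (SE 0.0388, adjusted p 0.0242). That rise was lost when only library size was scaled (0.084, adjusted p 0.119) and without replicate 1 or 2 of the group with both agents, or 1 or 3 of the dTAG-13 group (0.092 to 0.12, adjusted p 0.0653 to 0.129). The opposite-strand gene Chrnb2 overlaps 22.8% of the Adar exons, and without a stated strand setting the reads of such partners cannot be told apart. The Chrnb2 entry held 41 to 87 reads per library. Antisense or non-coding genes likewise overlap 5.85% of the Dhx58 exons, 4.03% of those of Eif2ak2 and 2.61% of those of Tlr3.

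**Figure D2:**
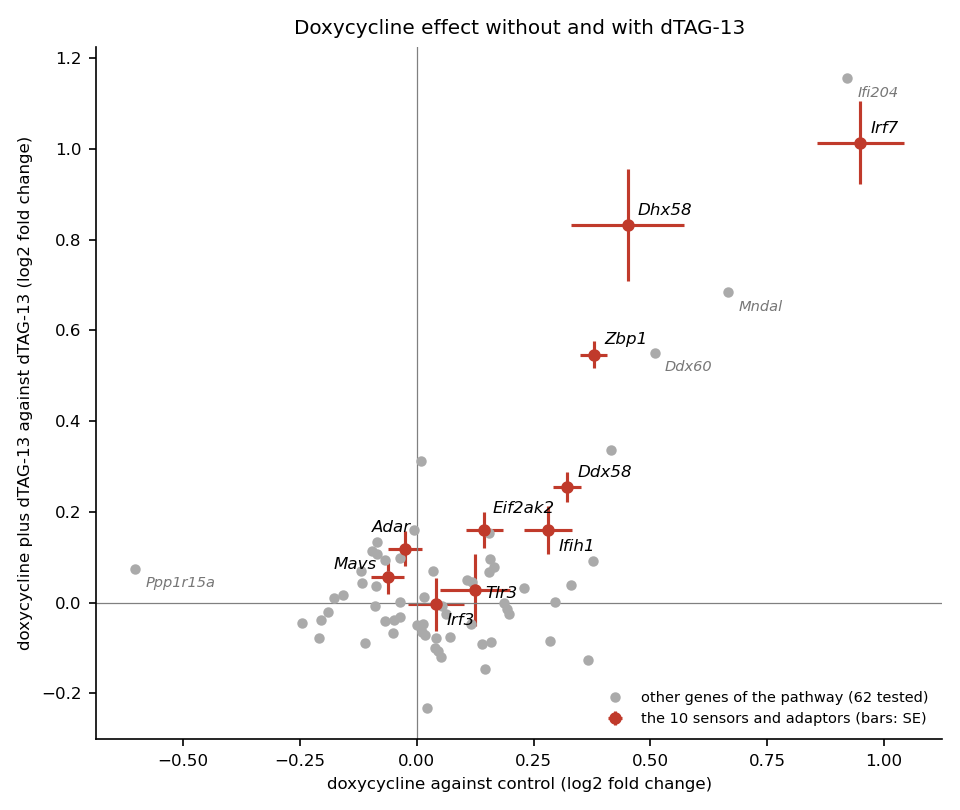
Log2 fold change of doxycycline against control (x axis) and of doxycycline plus dTAG-13 against dTAG-13 (y axis), from libraries that are not shared. Red points are the 10 members with SE bars and grey points 62 other genes of the pathway; Irf7 is at 0.95 and 1.01, and Mavs, Irf3, Tlr3 and Adar lie between -0.063 and 0.12 on the x axis.

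dTAG-13 was compared with control, and doxycycline plus dTAG-13 with doxycycline, to ask what differed after 3 h of the degrader. The adaptor Mavs, the editing enzyme Adar and the RIG-I gene Ddx58 fell by more than Tlr3 and Eif2ak2, and Irf3 rose. That order did not hold after the length and GC correction, in which Tlr3 fell by more than Adar in both comparisons. Among the doxycycline cultures the corrected fall of Tlr3 (-0.35) was also larger than that of Mavs (-0.30). There Eif2ak2 too fell by more than Adar after the correction. Against control 1 member was called higher and 5 lower, where 30.0% of all genes were called higher and 32.1% lower. When only library size was scaled, the same comparison gave 3 higher and 3 lower. That scaling moved Mavs from -0.49 to -0.40, Ddx58 from -0.39 to -0.30 and Irf3 from 0.26 to 0.35. Shares of all genes by direction were not counted for it, so the changed counts are not read as a result about the members. Among the doxycycline cultures 3 members were called higher and 6 lower, where 30.7% and 33.4% of all genes were. In both comparisons, which share no library, 5 members were called lower, as were 26.6% of all genes, and 1 was called higher (21.4% of all genes). The median log2 fold change of the members was -0.18 and -0.15, against 0.019 and 0.0032 for all genes. With DESeq2 the counts were 1 higher and 4 lower, and 2 higher and 5 lower, without shares of all genes by direction to set beside them. The summed mesenchymal markers were lower with dTAG-13 and the summed myeloid markers higher, as given above, and their part in these results was not tested.

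Mavs was at 104, 103 and 109 CPM in control, 101, 103 and 98.9 with doxycycline, 76.4, 76.8 and 71.5 with dTAG-13, and 76.9, 81.9 and 75.0 with both. The 6 libraries with dTAG-13 were all below the 6 without it. Mavs fell by 0.49 on the log2 scale against control, to 0.710 of its level (SE 0.0354, adjusted p 1.36e-15), and by 0.37 among the doxycycline cultures, to 0.771 (SE 0.036, adjusted p 5.09e-12). Ddx58 did the same, falling by 0.39 (SE 0.0318, adjusted p 5.03e-14) and by 0.46 (SE 0.0312, adjusted p 2.50e-16). Thus Ddx58 rose with doxycycline and fell with dTAG-13, and its mean of 106 ± 4.12 CPM with both agents lay between the 89.2 ± 2.58 with dTAG-13 and the 117 ± 3.08 in control.

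Adar was at 88.1, 86.9 and 92.0 CPM in control, 91.6, 84.8 and 85.9 with doxycycline, 62.2, 63.7 and 62.5 with dTAG-13, and 69.2, 70.7 and 65.0 with both. No library with dTAG-13 reached the lowest without it. Adar fell by 0.50 against control (SE 0.0373, adjusted p 3.67e-15) and by 0.36 among the doxycycline cultures (SE 0.0377, adjusted p 5.31e-11). After each library was corrected for transcript length and GC content, the Adar values were -0.23 (adjusted p 9.90e-07) and -0.024 (adjusted p 0.600), so that the second call was lost. The same correction left Mavs at -0.44 and -0.30 and Ddx58 at -0.40 and -0.43, all called.

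Tlr3 was at 13.2, 14.5 and 16.1 CPM in control, 16.2, 15.7 and 15.8 with doxycycline, 12.7, 12.7 and 13.1 with dTAG-13, and 12.3, 14.6 and 12.4 with both. The highest library with dTAG-13 alone, at 13.1, was just under the lowest control, at 13.2. Tlr3 fell by 0.18 against control (SE 0.0766, adjusted p 0.0353) and by 0.28 among the doxycycline cultures (SE 0.0773, adjusted p 0.00171). The first call was lost with DESeq2 (-0.18, adjusted p 0.0649), when only library size was scaled (-0.092), without control replicate 3 (-0.12) and without control replicate 2 or dTAG-13 replicate 1 or 2 (-0.20 to -0.18). With the length and GC correction the Tlr3 values were -0.32 and -0.35, both called. Eif2ak2 fell by 0.17 (SE 0.0398, adjusted p 0.000297) and by 0.15 (SE 0.0396, adjusted p 0.000821), the first not called when only library size was scaled (-0.078, adjusted p 0.0824).

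Irf3 was the member that rose both times. It was at 20.3, 20.3 and 22.2 CPM in control, 20.4, 21.0 and 23.2 with doxycycline, 24.3, 25.9 and 24.8 with dTAG-13, and 25.7, 24.4 and 24.7 with both. Every library with dTAG-13 was above every one without it. The fold was 1.19 against control (log2 0.26, SE 0.0588, adjusted p 0.000229) and 1.16 among the doxycycline cultures (0.21, SE 0.0598, adjusted p 0.00210). Irf7 rose by 0.20 among the doxycycline cultures (SE 0.0845, adjusted p 0.0363), with overlapping libraries. That call was lost with DESeq2 (0.21, adjusted p 0.0551) and without control replicate 2, dTAG-13 replicate 1, or replicate 1 or 2 of either doxycycline group (0.13 to 0.19). Against control Irf7 changed by 0.14 (95% interval -0.061 to 0.33), which was called at 0.23 when only library size was scaled (adjusted p 0.0459). The Ifih1 values were -0.019 (-0.12 to 0.085) against control, or 0.073 with library size only, and a fall of 0.14 among the doxycycline cultures (SE 0.0521, adjusted p 0.0186). The fall of Ifih1 was not called with DESeq2 (-0.13, adjusted p 0.0565), after the length and GC correction (-0.051) or without replicate 3 of the group with both agents or replicate 1 of the doxycycline group (-0.13 in both). Dhx58 was not called, at -0.24 (-0.49 to 0.017) and 0.14 (-0.083 to 0.37), although without control replicate 3 the first was called at -0.33 (adjusted p 0.0403).

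**Figure D3:**
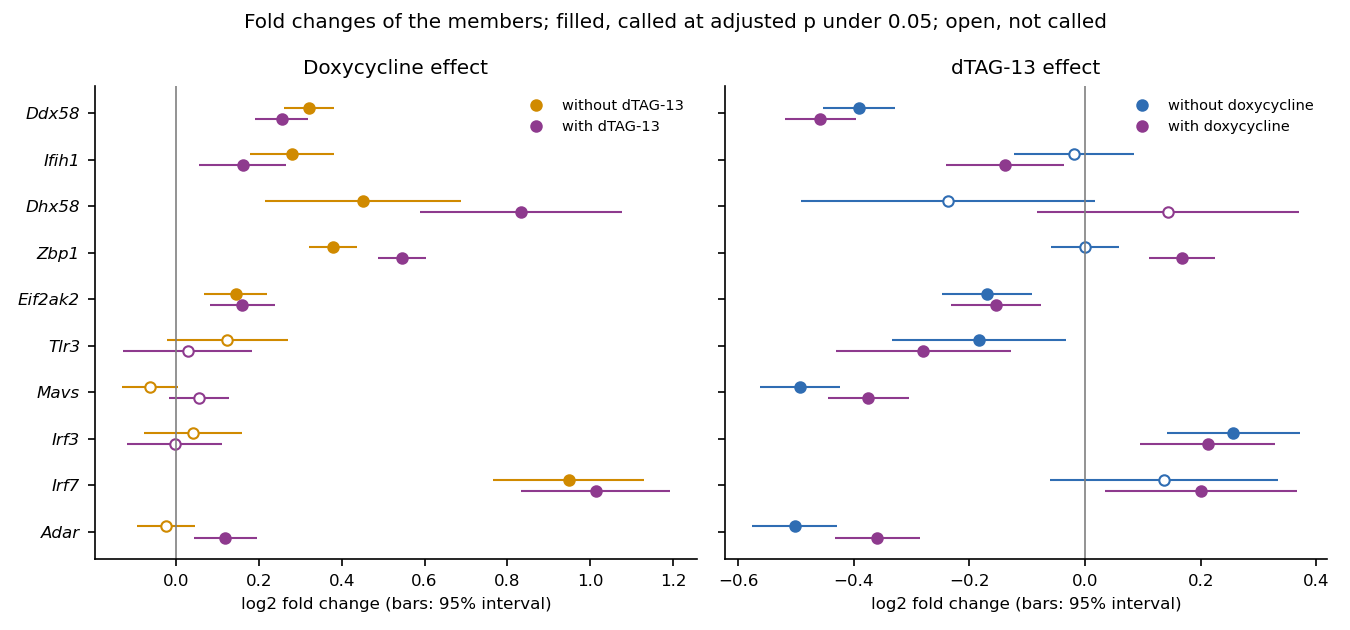
Log2 fold changes of the 10 members (x axis, bars 95% intervals) for doxycycline without and with dTAG-13 (left) and for dTAG-13 without and with doxycycline (right). Filled points were called and open points were not; Irf7, Dhx58, Zbp1, Ddx58, Ifih1 and Eif2ak2 are right of 0 for doxycycline, and Mavs, Adar, Ddx58, Tlr3 and Eif2ak2 left of 0 for dTAG-13.

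**Figure D4:**
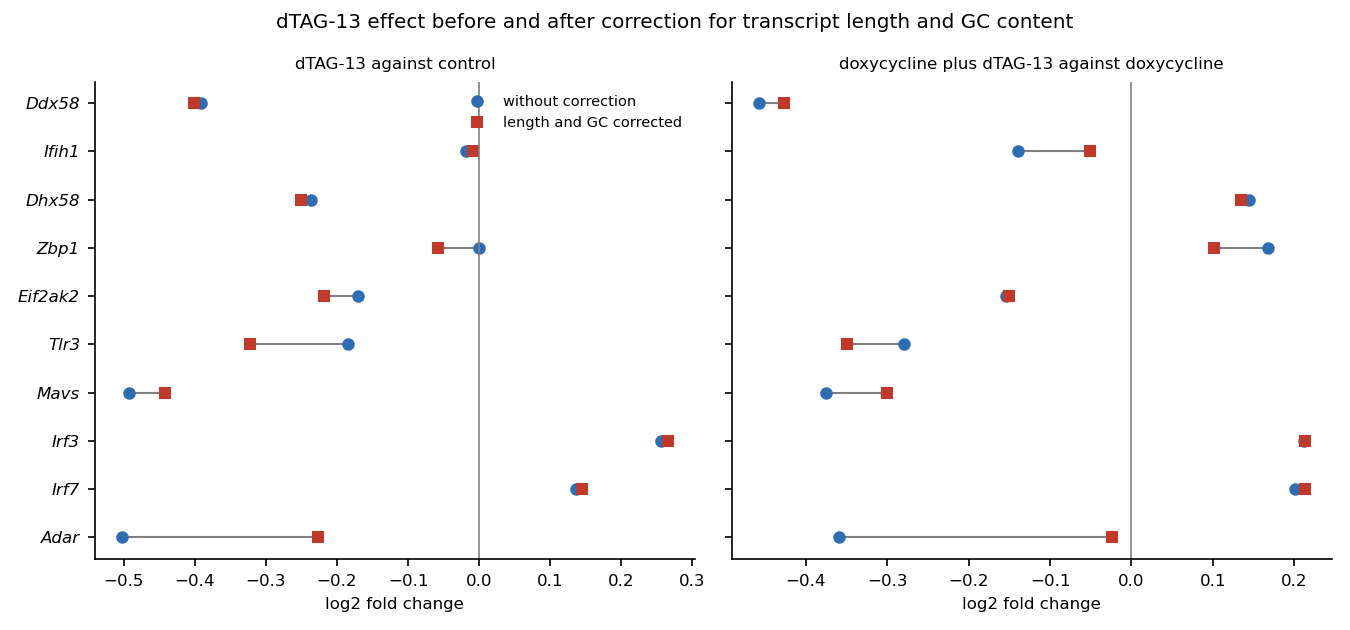
Log2 fold change of the 10 members for dTAG-13 against control (left) and doxycycline plus dTAG-13 against doxycycline (right), without correction (circles) and after the correction for transcript length and GC content (squares). Adar moves most, from -0.50 to -0.23 and from -0.36 to -0.024, while Ddx58 stays at -0.39 and -0.40 and at -0.46 and -0.43.

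The genes nearest in pattern were found for the 3 members with the widest range, as the root mean square difference of centred log2 CPM over the 12 libraries, among 11557 genes. For Irf7 they were Cmpk2 (difference 0.124), Rsad2 (0.151) and Gbp8 (0.152). Cmpk2 went from 9.20 CPM in control to 16.4 with doxycycline, and from 9.58 with dTAG-13 to 18.6 with both. For Dhx58 they were Usp18 (0.119), Gm12250 (0.143) and Ifitm3 (0.152). For Ddx58 they were Myadm (0.0425), Batf2 (0.0456) and Pacs2 (0.0469).

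The interaction asked whether the dTAG-13 effect differed when doxycycline was present. It was called for 2 members, Zbp1 and Adar, both in the higher direction, where 13.2% of all genes were called higher and 9.64% lower. For Zbp1, dTAG-13 changed the level by 0.00023 without doxycycline (95% interval -0.059 to 0.059) and raised it by 0.17 with doxycycline (SE 0.0292, adjusted p 3.22e-06). The difference between these, 0.17 (SE 0.042, adjusted p 0.00285), was called except when only library size was scaled (0.097, adjusted p 0.0871). In that scaling Zbp1 was also called higher with dTAG-13 alone, at 0.092, and the length and GC correction reduced the rise with doxycycline to 0.10. The Adar interaction was 0.14 (SE 0.0531, adjusted p 0.0456) and was lost when only library size was scaled (0.073, adjusted p 0.346), with DESeq2 (0.15, adjusted p 0.0537), and without any library other than replicate 1 of control or of doxycycline or replicate 3 of the group with both agents (0.11 to 0.15). For the other 8 members the difference was not called. Dhx58 had the largest value of all 10 members, 0.38 (adjusted p 0.112), and the widest interval. Its 95% interval, not adjusted for the number of genes tested, ran from 0.040 to 0.72. The Mavs value of 0.12 was called at 0.14 after the length and GC correction and at 0.15 without doxycycline plus dTAG-13 replicate 3, and that of Ddx58, -0.066, was called at -0.14 when only library size was scaled.

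Other genes of the pathway, 78 in 8 lists, were taken for their known roles, and 62 were tested. With doxycycline 18 rose and 12 fell against control, where 14.8% of all genes were called higher and 18.7% lower, and 10 rose and 2 fell with dTAG-13 present (10.7% and 9.64% of all genes). With dTAG-13, 18 rose and 25 fell against control (30.0% and 32.1% of all genes), and 17 rose and 25 fell among the doxycycline cultures (30.7% and 33.4%). When only library size was scaled the split was 23 higher and 8 lower, then 6 and 9, for doxycycline, and 25 higher and 15 lower for dTAG-13 against control. After the length and GC correction it was 16 and 15 for doxycycline against control, and 18 and 17 for dTAG-13 among the doxycycline cultures. Shares of all genes by direction were not counted in these settings, so the changed splits are not read as a result about these genes. The medians of the 62 were 0.029, -0.00015, -0.019 and -0.032 in the same order, near those of all genes. The counts per list that follow are to be read against the same shares of all genes, and no list was tested as a set. Those shares are from edgeR at adjusted p under 0.05 and were not counted by direction for DESeq2 or an unadjusted p. The list of 8 DNA sensing genes had 3 higher and 2 lower with doxycycline and 4 higher and 0 lower with dTAG-13 present. Ifi204, of the HIN-200 family of DNA-binding proteins, rose from 2.06 ± 0.303 to 3.89 ± 0.302 CPM (log2 0.92, adjusted p 6.36e-06), and with dTAG-13 from 2.11 ± 0.174 to 4.74 ± 0.394 CPM (1.16, adjusted p 1.18e-07). Mndal of the same family rose by 0.67 and by 0.68 (adjusted p 1.65e-10 and 3.03e-10). The HIN-200 genes are alike in sequence, so reads may be shared among them.

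Among the regulators of RNA sensing, 11 of 14 were tested. Ddx60, a helicase linked to RIG-I signalling, rose with doxycycline from 9.18 ± 0.416 to 13.1 ± 1.04 CPM (log2 0.51, adjusted p 3.40e-06) and with dTAG-13 present by 0.55 (adjusted p 1.81e-06). Prkra, which encodes the PKR activator PACT, rose by 0.30 (adjusted p 4.01e-05) against control. In this list 4 rose and 4 fell with doxycycline, then 2 rose and 1 fell with dTAG-13 present, Dhx36 by -0.11 (adjusted p 0.00660, not called without doxycycline plus dTAG-13 replicate 1, -0.083). With dTAG-13, 2 rose and 5 fell against control and 1 rose and 6 fell among the doxycycline cultures. The RNA helicases Dhx9 and Ddx3x led both, at -0.74 and -0.60 against control and at -0.54 and -0.43 with doxycycline. Dhx9 was at 437.5 ± 1.75 CPM in control and 261 ± 4.41 with dTAG-13.

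The 12 kinases and adaptors that act after the sensors were all tested. With doxycycline 5 rose and 1 fell against control, led by Ticam1, the adaptor of TLR3 (0.29, adjusted p 0.00746), and Ikbkg (0.19, adjusted p 0.000668). Of all genes, 14.8% were called higher and 18.7% lower in that comparison. By DESeq2, 3 of the 12 were called higher and 1 lower. With dTAG-13 present 0 of the 12 were called by edgeR or by DESeq2, and 1 had an unadjusted p under 0.05 in edgeR. With dTAG-13 against control 7 rose and 3 fell, and among the doxycycline cultures 4 rose and 4 fell. Traf3, a ubiquitin ligase between MAVS and TBK1, fell from 80.9 ± 1.91 to 49.9 ± 0.591 CPM with dTAG-13 and from 81.5 ± 1.43 to 47.8 ± 0.847 CPM among the doxycycline cultures. Its log2 fold changes were -0.70 (adjusted p 4.72e-20) and -0.77 (adjusted p 4.31e-21), and after the length and GC correction -0.37 and -0.38, both called. Ikbke, which encodes IKKε, rose by 0.38 with dTAG-13 (adjusted p 0.0131, not called without control replicate 3, 0.29). Ticam1 fell by 0.38 among the doxycycline cultures (adjusted p 0.000198).

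ZBP1 can start cell death through the kinase RIPK3. Ripk3 had 1 read in the control libraries, 1 in those with both agents and 0 in the other 2 groups, so the partner's transcript was at the limit of detection. Over a group of 3 libraries, 3 counts stand for 0.0319 to 0.0381 CPM of the summed libraries, a limit that covers counting error only. Of the 8 genes of this death pathway 7 were tested. With doxycycline 0 rose and 1 fell, Pgam5 by 0.21 (adjusted p 2.83e-07), and with dTAG-13 present 0 rose and 1 fell. That was Cflar, which encodes the caspase-8 inhibitor FLIP, at -0.23 (adjusted p 0.000520). With dTAG-13 against control 1 rose and 2 fell, Fadd by 0.22 and Cflar by 0.16, and among the doxycycline cultures 1 rose and 3 fell, Cflar by 0.41 and Fadd by 0.19. Against control both calls were lost when only library size was scaled (Fadd -0.13, Cflar -0.069) and after the length and GC correction (Fadd -0.14, Cflar 0.013). Among the doxycycline cultures the corrected values were -0.15 for Cflar, which stayed called, and -0.076 for Fadd, which did not. The Fadd call there was also lost with DESeq2 (-0.17) and without replicate 3 of both agents (-0.13) or replicate 1 of doxycycline (-0.17).

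The 9 genes around Eif2ak2, its sister kinases, eIF2 subunits and the phosphatase, were all tested. With doxycycline 0 rose and 3 fell against control. Ppp1r15a, the stress-induced phosphatase subunit that reverses the action of PKR, fell from 388 ± 6.16 to 255 ± 8.91 CPM (log2 -0.60, adjusted p 2.74e-22), while Eif2ak2 itself rose. Eif2s1, the eIF2α gene, fell by 0.16 (adjusted p 6.34e-07). With dTAG-13 present 2 rose and 0 fell, Eif2s2 by 0.11 and Ppp1r15a by 0.075. The Eif2s2 call was lost after the length and GC correction (0.096), and that of Ppp1r15a when only library size was scaled (0.041) and without replicate 1 or 2 of the group with both agents or replicate 2 of the dTAG-13 group (0.057 to 0.077). With dTAG-13 against control 2 rose and 5 fell, led by the haem-regulated kinase gene Eif2ak1 (-0.44, adjusted p 2.98e-12) and Eif2s1 (0.27, or 0.052 after the length and GC correction). Among the doxycycline cultures 4 rose and 5 fell, led by Eif2ak3, which encodes the kinase PERK (-0.52, or -0.31 after that correction), and Ppp1r15a (0.50, adjusted p 1.16e-20).

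For RNA editing and degradation 10 of 11 genes were tested. With doxycycline 3 rose and 1 fell, with Pnpt1, the mitochondrial RNA-degrading enzyme, at 0.17 (0.10 after the length and GC correction) and Dis3 at -0.20. With dTAG-13 present 2 rose and 0 fell, Rnaseh2b and Xrn1 by 0.16 and 0.15, and each call was lost in other settings. The Rnaseh2b value was 0.13 with library size only, 0.10 after the length and GC correction and 0.15 without replicate 3 of the group with both agents or of the dTAG-13 group. That of Xrn1 was 0.12 with library size only, 0.16 with DESeq2, and 0.11 to 0.16 without replicate 2 or 3 of the group with both agents or any 1 of the 3 dTAG-13 libraries. With dTAG-13 against control 4 rose and 4 fell, and among the doxycycline cultures 5 rose and 4 fell. The exonuclease gene Xrn1 fell by 0.49 and by 0.50 (-0.33 and -0.23 after the length and GC correction), and Wdr61, of the cytosolic RNA-decay complex, rose by 0.44 and by 0.45. In the DNA sensing list 1 gene rose and 3 fell with dTAG-13 against control, and 2 rose and 1 fell among the doxycycline cultures. Samhd1, a nucleotide hydrolase, fell by 0.47 and by 0.55 (-0.29 and -0.31 corrected), and the helicase gene Ddx41 by 0.22 against control (-0.13 with library size only). Aim2, a sensor that forms an inflammasome, rose by 0.35 among the doxycycline cultures (0.18 corrected).

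Of the 8 genes for endosomal sensing 5 were tested. Tlr7, Tlr8 and Tlr9 were at the limit of detection, with 9, 0 and 5 reads over the 12 libraries. With doxycycline 3 rose and 0 fell, led by Unc93b1, which carries these receptors to endosomes (0.38, adjusted p 5.28e-08), and Irak1 (0.20). With dTAG-13 present 0 of the 5 were called by edgeR or by DESeq2, and 1 had an unadjusted p under 0.05 in edgeR. With dTAG-13 against control 1 rose and 3 fell, Unc93b1 by 0.18 and Cnpy3 by -0.16 (not called with library size only, -0.072). Among the doxycycline cultures 0 rose and 2 fell, Irak1 by 0.30 (0.17 after the length and GC correction) and Cnpy3 by 0.22.

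The interferon genes that lie at the end of the pathway were almost silent, and none of the 8 listed passed the filter. Ifnb1 had 0 reads in each control and each dTAG-13 library, 2, 0 and 1 with doxycycline, and 2, 2 and 2 with both agents. All its reads were thus in doxycycline libraries, too few to test. Apart from Ifnb1, the list held 2 reads of Ifne in control and 1 of Ifnk with doxycycline.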

How the data were processed

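RNA-seq of polyA RNA was made from 12 libraries, 3 technical libraries of 1 biological sample in each of 4 groups. The authors deposited raw read counts per Entrez gene; bcl2fastq 2.17, featureCounts and mm10 are named in the submitters' processing notes, and the annotation, strand setting and multimapping rule were not given in the sources used here. Symbols came from the RefSeq gene table, and exon lengths and GC content from GENCODE M21.

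Genes were filtered with filterByExpr, scaled by TMM and tested with edgeR 4.0.16 (robust quasi-likelihood F test, 1 mean per group, R 4.3.3). P-values were adjusted by Benjamini-Hochberg over all 12910 genes, with calls made at adjusted p under 0.05. SE is the log2 fold change divided by the root of F. CPM use TMM-scaled library sizes. For the interaction, the effect of dTAG-13 in the absence of doxycycline was subtracted from that in its presence. On simulated counts for doxycycline against control, 12840 genes, 91 of 100 genes changed 1.25-fold were recovered, with 8 of 12640 unchanged genes called. The changed genes were drawn from those with a mean of at least 100 counts, and every gene was given the same spread. Far fewer genes changed than were called in the data. The simulation therefore does not cover genes with a wider spread or differences between cultures.

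Alternatives were other scalings, DESeq2 1.42.0, other filters, only the groups compared, a replicate block, a length and GC correction (splines with 5 degrees of freedom, for the 91.0% of tested genes with a length) and leaving out each library. Named genes were the members, Adpgk, up to 2 called genes per list and comparison with the largest change and a mean of at least 1 CPM, and the 3 nearest in pattern to each of 3 members. Ripk3, Tlr7, Tlr8, Tlr9, the interferon genes and Chrnb2 were named after their values were seen. The members and lists were chosen with earlier results of these data known.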

Additional observations from a re-analysis of the deposited data

Results flagged for a closer look

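The effect of dTAG-13 on Zbp1 differed with and without doxycycline by the interaction term of the edgeR fit, at 0.168 on the log2 scale (SE 0.0420, adjusted p 0.00285). The Zbp1 difference was not called when only library size was scaled (0.097, adjusted p 0.0871). The corresponding Adar value was 0.143 (SE 0.0531, adjusted p 0.0456), and it was lost in most settings that left out a library. The interaction was called higher for 2 of the 10 members and for 13.2% of all genes.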

How the results depend on the processing

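The groups are 1 culture each, so no setting measures variation between cultures. Of the 30 called values of the members over the 5 comparisons, 30 kept their call and direction with DESeq2 size factors in edgeR, with no filter on low counts and with a filter of 1 CPM in 3 libraries. With DESeq2 26 kept it, with library size only 24, with the replicate block 29, with the length and GC correction 28, and with the block and that correction 28. With only the groups compared it was 28 of 28, and with 1 library left out 25 to 29. None of these reversed; where a call was lost the cause was not tested. The count of members called was 6 for doxycycline against control (5 to 6 without 1 library). With dTAG-13 present it was 7 for doxycycline (5 to 7 over the other settings and also without 1 library). For dTAG-13 it was 6 against control (5 to 6 in both ways) and 9 among the doxycycline cultures (7 to 9 in both ways). For the interaction it was 2, falling to 1 with library size only, with DESeq2 and with the replicate block. Without 1 library the interaction count was 1 to 3. Replicate numbers did not pair the libraries: deviations of same-numbered libraries correlated at -0.0173 to 0.0814 over 18 pairs, and of differently numbered ones at -0.0627 to 0.0661 over 36. The block changed no other call of a member than that of the Adar interaction (0.14, adjusted p 0.0547).

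Values that changed sign were not called in any setting, apart from Zbp1 with dTAG-13 against control (called at 0.092 with library size only) and Cflar. With library size only these were Adar for doxycycline against control (0.012), Ifih1 for dTAG-13 against control (0.073), Tlr3 for doxycycline with dTAG-13 present (-0.0068), and the interactions of Eif2ak2 (-0.055) and Irf7 (-0.0062). Zbp1 for dTAG-13 against control was -0.0016 with only the groups compared and -0.058 with the length and GC correction, alone or with the replicate block. Irf3 for doxycycline with dTAG-13 present was 0.0013 with DESeq2 size factors, 0.0016 with DESeq2 and 0.0065 with no filter. Cflar for dTAG-13 against control was 0.013 with the length and GC correction and 0.014 with the block as well. Without 1 library, doxycycline against control ranged from -0.049 to 0.0098 for Adar and from -0.018 to 0.089 for Irf3. dTAG-13 against control ranged from -0.055 to 0.0055 for Ifih1 and from -0.027 to 0.021 for Zbp1. Doxycycline with dTAG-13 present ranged from -0.054 to 0.072 for Tlr3 and from -0.024 to 0.028 for Irf3. The interaction ranged from -0.028 to 0.064 for Eif2ak2, from -0.089 to 0.016 for Irf3 and from -0.039 to 0.16 for Irf7.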

Other observations

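The interaction was also called for 25 of the 62 other pathway genes, 14 higher and 11 lower, where 13.2% of all genes were called higher and 9.64% lower. When only library size was scaled, 6 were called higher and 21 lower. In that scaling 3242 of 12910 genes were called in either direction, and shares by direction were not counted. It also lowered the interactions of Zbp1 (to 0.097), Adar (to 0.073) and Ddx58 (to -0.14), which are outside these lists. The changed split is therefore not read as a result about these genes. Ppp1r15a, the stress-induced eIF2 phosphatase subunit, had the widest difference of these, 0.68 (SE 0.0351, adjusted p 1.37e-18). It was at 388 ± 6.16 CPM in control, 255 ± 8.91 with doxycycline, 344 ± 4.51 with dTAG-13 and 362 ± 8.87 with both (SD, n = 3), so that it was low in the doxycycline libraries without dTAG-13. The RNA helicase gene Dhx9 had an interaction of 0.20 (adjusted p 8.47e-06), and Unc93b1, which carries Toll-like receptors to endosomes, of -0.28 (adjusted p 0.00221). Tbk1, the kinase after MAVS, had -0.23 (adjusted p 0.0126) and Irak1 -0.22 (adjusted p 5.46e-05). Ttc37, of the cytosolic RNA-decay complex, had -0.24 (adjusted p 0.000227) and Prkra -0.29 (adjusted p 0.00388).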
